A study of Mus musculus with 35 samples.

Results

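A set of 10 genes that YAP and TEAD are known to switch on, of 54354 genes in the table, was followed through 35 libraries of mouse colon tumour organoids. The genes were chosen by name, namely Ankrd1, Amotl2, Ajuba, Lats2, F3, Crim1, Nuak2, Ptpn14, Myof and Wwc1, and each name matched 1 gene. The organoids, epithelial cultures grown in a dish, carry the genotype label AKP in every library. The labels do not spell out the alleles. One experiment compared palmitic acid, a saturated fatty acid from which ceramides are built, with its control, as batch 1 (3 libraries) and batch 2 (2 libraries) against 3 control libraries that the labels give to neither batch. The other compared carmofur, an inhibitor of ceramidases, in 15 libraries with 12 control libraries. The labels give no dose, time or vehicle, and do not say whether replicate libraries are separate cultures. The p-values therefore measure only the spread between libraries, which may be technical.

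YAP and its relative TAZ are coactivators that enter the nucleus when the Hippo kinase cascade is quiet and there bind TEAD transcription factors. Upstream, the kinases STK3 and STK4 activate LATS1 and LATS2, which phosphorylate YAP and TAZ and keep them out of the nucleus. Several targets feed back on the pathway, so their transcripts serve both as a readout and as a part of it. In the intestine YAP is known for its role in regeneration after injury and in a fetal-like state of the epithelium.

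RefSeq windows of GRCm38.p6, 250 bases before to 50 after a transcription start, were at hand for 9 of the 10 members. The TEAD core GGAATG, on either strand, lay in the windows of 6 of these 9 (Ajuba, Amotl2, Ankrd1, Crim1, Lats2 and Ptpn14), and in 14.7% of all 32851 windows. The AP-1 motif TGANTCA, which reads the same on both strands, lay in the window of F3 only, and in 7.81% of all windows. The 250 bases before the start are shown for 5 members whose levels are described below, 5′ to 3′ on the strand of the gene, with matches to either motif in capitals (CATTCC is GGAATG on the other strand).
Ankrd1 (chr19:36119845-36120094, minus strand): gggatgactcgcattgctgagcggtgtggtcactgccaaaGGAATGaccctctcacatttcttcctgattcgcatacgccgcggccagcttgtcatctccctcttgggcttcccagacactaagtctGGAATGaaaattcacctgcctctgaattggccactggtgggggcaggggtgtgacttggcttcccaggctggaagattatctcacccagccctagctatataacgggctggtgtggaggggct
Ajuba (chr14:54577662-54577911, minus strand): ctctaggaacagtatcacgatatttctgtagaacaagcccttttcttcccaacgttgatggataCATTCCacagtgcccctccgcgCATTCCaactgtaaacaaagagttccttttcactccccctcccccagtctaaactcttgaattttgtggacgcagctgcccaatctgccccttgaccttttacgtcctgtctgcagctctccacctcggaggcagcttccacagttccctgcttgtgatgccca
Ptpn14 (chr1:189728018-189728267, plus strand): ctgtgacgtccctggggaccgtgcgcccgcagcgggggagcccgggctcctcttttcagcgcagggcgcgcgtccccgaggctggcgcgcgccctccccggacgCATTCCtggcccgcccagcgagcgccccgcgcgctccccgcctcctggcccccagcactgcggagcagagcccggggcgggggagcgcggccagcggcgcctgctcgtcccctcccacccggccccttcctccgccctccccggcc
Crim1 (chr17:78199998-78200247, plus strand): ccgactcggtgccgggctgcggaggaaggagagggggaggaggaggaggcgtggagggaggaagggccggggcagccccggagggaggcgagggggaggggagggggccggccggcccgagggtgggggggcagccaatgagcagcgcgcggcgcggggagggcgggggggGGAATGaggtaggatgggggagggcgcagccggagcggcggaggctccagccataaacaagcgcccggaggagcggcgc
F3 (chr3:121723287-121723536, plus strand): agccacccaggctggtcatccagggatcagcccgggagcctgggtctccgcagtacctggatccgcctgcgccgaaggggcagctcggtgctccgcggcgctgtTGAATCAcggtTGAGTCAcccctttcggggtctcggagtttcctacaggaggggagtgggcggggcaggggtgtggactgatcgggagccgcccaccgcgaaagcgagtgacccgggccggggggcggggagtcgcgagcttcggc
Ankrd1 and Ajuba hold a pair of GGAATG cores each, at -210 and -123 in Ankrd1 and at -186 and -164 in Ajuba, counted from the start. Ptpn14 holds 1 at -146 and Crim1 1 at -79. The F3 window has no GGAATG core and holds its AP-1 matches at -146 and -135. In Amotl2 the core lay at -65, and in Lats2 just after 1 of its starts, at position 5. A match describes the letters of the window and is not evidence of binding. In GENCODE M21 (GRCm38) the other members lie at chr9:102716672-102733418 (Amotl2, plus strand), chr14:57689662-57758388 (Lats2, minus), chr1:132316126-132333488 (Nuak2, plus), chr19:37899036-38043577 (Myof, minus) and chr11:35838400-35980527 (Wwc1, minus).

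Total gene counts ran from 2138905 to 2845017 in palmitic acid batch 1, 2406582 to 3742289 in batch 2 and 762888 to 2511723 in their controls, and from 3127275 to 10609563 with carmofur and 1663750 to 8124707 in its controls. The limit that a count of 0 allows, 3 counts, equals 0.292 to 1.79 CPM (counts scaled to library size with TMM factors) in the carmofur experiment and 0.812 to 3.87 CPM in the palmitic acid experiment, for counting error only. Of 9 colon epithelium markers 7 were detected in every library (Epcam, Cdh1, Krt8, Krt18, Krt19, Vil1 and Cdx2). Cdx1, a homeobox factor of the intestine, was at 0 in 5 of 15 carmofur libraries and 3 of 12 of their controls, and in 0 of 3 batch 1, 2 of 2 batch 2 and 1 of 3 palmitic acid control libraries. Krt20, a keratin of differentiated colon cells, was at 0 in 2 of 12 carmofur controls, and in 1 of 3 batch 1 and 1 of 3 palmitic acid control libraries. Fibroblasts, which also express many YAP targets, left little trace, since Col1a1, Col1a2, Lum, Pdgfrb and Thy1 were at 0 in all 35 libraries. The 8 fibroblast markers summed to 0 to 4.29 CPM with carmofur, 0 to 6.84 CPM in its controls and at most 0.271 CPM in the palmitic acid experiment. Carmofur control 1 and carmofur 8 and 10 stood apart, with median correlations to their own group of 0.74, 0.747 and 0.75, where the other carmofur-experiment libraries had 0.775 to 0.829.

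Per kilobase of annotated exon, F3 was the highest member in all 5 groups. F3 encodes tissue factor, the membrane receptor that starts blood clotting. Its level was 23.9 ± 7.72 CPM per kb with carmofur and 21.6 ± 8.83 in carmofur controls, and 8.23 ± 0.259 in palmitic acid batch 1, 12.6 ± 3.86 in batch 2 and 11.2 ± 1.5 in palmitic acid controls (mean ± SD, n = 15, 12, 3, 2 and 3). Ajuba and Myof came next in every group, at 1.37 to 3.78 and 1.92 to 3.28 CPM per kb. The gap below F3 exceeded the larger SD of the pair in all 5 groups. Below Myof and Ajuba, no neighbours in the order of means differed by more than the larger SD, except Crim1 and Amotl2 in the palmitic acid controls. Lats2 and Ankrd1 held both of the last places in batch 1, palmitic acid controls and carmofur controls. With carmofur Lats2 was last and Ankrd1 had rank 5, and in batch 2 Crim1 was last.

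With carmofur, 0 of the 9 members tested passed an adjusted p of 0.05 in the quasi-likelihood test of edgeR, adjusted by Benjamini-Hochberg over all 9992 genes tested, where 9.02% of those genes passed. At an unadjusted p under 0.05 there was 1, Crim1, where 19% of tested genes reached that level. DESeq2 called 0 members, and limma-voom with quality weights called 1, again Crim1. The share of all genes that each of these tools called is not given here, so these counts have no background beside them. The median log2 fold change of the 9 was 0.34, against 0.00 over all tested genes, and 7 of 9 were above 0, against 50.2% of tested genes. These folds were fitted without the blocks of library numbers described below, over which the groups are unevenly spread. In none of the 10 did all carmofur libraries lie above or below all controls, which held for 0.59% and 0.17% of tested genes. Of the 9 colon epithelium markers only Krt20 separated these groups, and the others overlapped. Krt20 lay at 13.6, 30.1 and 53.1 CPM with carmofur (lowest, median and highest) and 0, 3.35 and 11.5 CPM in controls. Its part in the members' values was not tested. In bulk RNA, fewer cells that express a gene and less RNA per cell cannot be told apart.

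The membrane proteins came first by level. F3 lay at 20.2, 65.8 and 89.1 CPM (lowest, median and highest of 15 libraries) with carmofur, against 24.3, 51.9 and 96.2 CPM in 12 controls. Its log2 fold change was 0.15 ± 0.21 (SE, edgeR adjusted p = 0.813). Myof, myoferlin, a ferlin of membrane repair and vesicle fusion, lay at 10.7, 23.6 and 49.8 CPM with carmofur, against 10.5, 19.4 and 50.9 CPM in controls (0.05 ± 0.28, edgeR adjusted p = 0.965). Over all blocks of library numbers, described below, both groups of both genes covered nearly the same range. The blocks hold 6, 6 and 3 carmofur libraries and 3, 3 and 6 controls. Myof had means of 34.6, 21.2 and 13.7 CPM with carmofur in blocks 1, 2 and 3, against 22, 28.6 and 23.1 CPM in controls. F3 had 75.9, 59.9 and 29.7 CPM, against 77, 56.1 and 42.5 CPM. The pooled values of the groups therefore draw unequally on the blocks.

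Crim1, a transmembrane protein with cysteine-rich repeats that binds bone morphogenetic proteins, had the lowest p of the members. It lay at 0.44, 8.75 and 30.4 CPM with carmofur, against 0, 4.08 and 8.68 CPM in controls. Of the 15 carmofur libraries 8 lay above the highest control and none below the lowest, so the groups overlapped. The log2 fold change was 1.49 ± 0.67 (edgeR adjusted p = 0.191, unadjusted p = 0.031). By limma-voom with quality weights it was 2.17 (adjusted p = 0.0449).

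The Crim1 difference was uneven over the run of library numbers, which were cut into 3 blocks of 12 numbers that the labels do not call batches. In block 1 Crim1 had a median of 8.49 CPM in 6 carmofur libraries and 7.74 CPM in 3 controls, and the log2 fold change within the block was 0.52 (edgeR adjusted p = 0.909). In block 2 the 6 carmofur libraries lay at 0.44 to 30.4 CPM, with 453 counts in all, and the 3 controls at 0 counts. The exact 95% interval of the ratio of pooled levels began at 38.1, which covers counting error only and not the spread between libraries. Crim1 passed within this block (edgeR adjusted p = 0.0211), as 1 of 512 genes that did. The number of genes tested within the block is not given here, so this call has no background share beside it. In block 3 the median was 5.72 CPM in 3 carmofur libraries and 4.73 CPM in 6 controls (log2 fold change 0.87, edgeR adjusted p = 0.83). The value over all blocks with block as a covariate was 1.73 (edgeR adjusted p = 0.221). Without carmofur controls 4 to 6, the controls of block 2, it was 1.07 (edgeR adjusted p = 0.358).

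**Figure D1:**
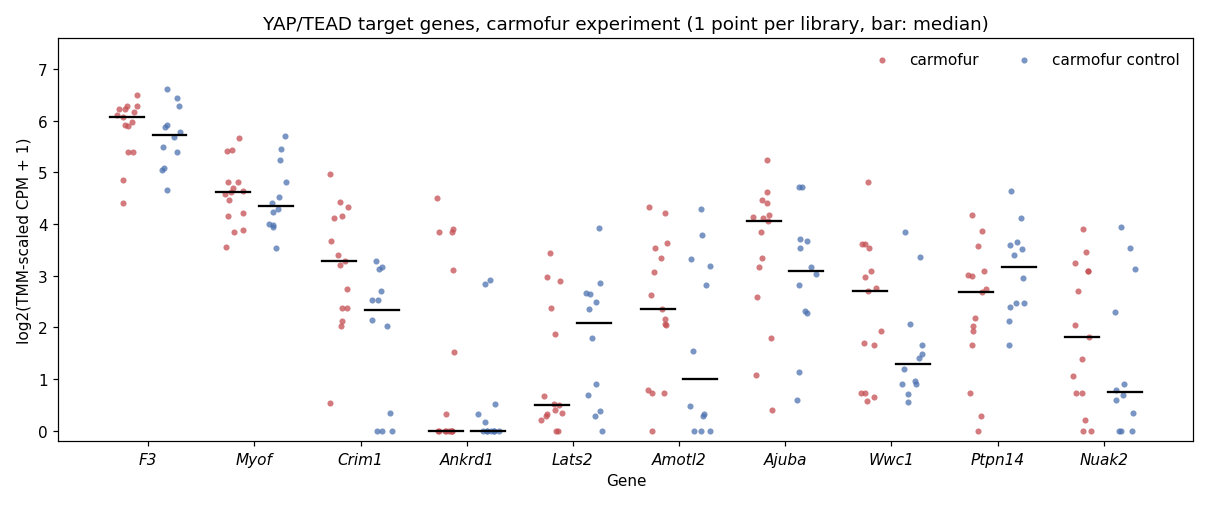
Levels of the 10 YAP/TEAD target genes, as log2 of TMM-scaled CPM plus 1 (vertical axis), in each carmofur library (red, left) and control library (blue, right), with 1 point per library and a bar at the median of 15 or 12 libraries. The groups overlap in all 10 genes, F3 and Myof lie highest, and Ankrd1, Lats2, Amotl2 and Nuak2 hold libraries at or near 0 in both groups.

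Ankrd1, a nuclear ankyrin-repeat cofactor that is among the most used YAP readouts, was below the expression filter in this experiment and was not tested. It was either near absent or clearly present. More than 3 counts were found in 6 of 15 carmofur libraries and in 2 of 12 controls. The 6 carmofur libraries were number 8 (41 counts, 13.3 CPM), 9 (95, 13.3), 11 (222, 21.6), 12 (114, 14), 13 (47, 7.61) and 14 (13, 1.88). The 2 controls were number 4 (24 counts, 6.56 CPM) and number 7 (48, 6.15). Of the remaining libraries, 8 carmofur libraries and 7 controls had 0 counts.

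Ankrd1 detection also followed the blocks. In block 1 the 6 carmofur libraries held 1 count in all and the 3 controls 2. In block 2 more than 3 counts were found in 4 of 6 carmofur libraries and 1 of 3 controls, and in block 3 in 2 of 3 carmofur libraries and 1 of 6 controls. Carmofur 8, one of the libraries that stood apart, is among the 6, and the others are not. The sum of the fibroblast markers was highest in carmofur control 4 (6.84 CPM) and carmofur 12 (4.29 CPM), both with Ankrd1. The other 6 libraries with Ankrd1 had at most 0.14 CPM. Each of the 2 sums came nearly all from 1 gene, Dcn in control 4 (6.56 CPM) and Pdgfra in carmofur 12 (4.29 CPM). Their part in the Ankrd1 values was not tested. The immune marker sum was 32.3 to 128 CPM in the 6 carmofur libraries with Ankrd1 and 7.36 to 166 CPM in the other 9. Cd68 made up nearly all of it, Cd3e, Csf1r and Adgre1 were at 0 in all 35 libraries, and its part in the Ankrd1 values was not tested. With no filter on low counts the fitted log2 fold change was 2.07 (edgeR adjusted p = 0.317).

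**Figure D2:**
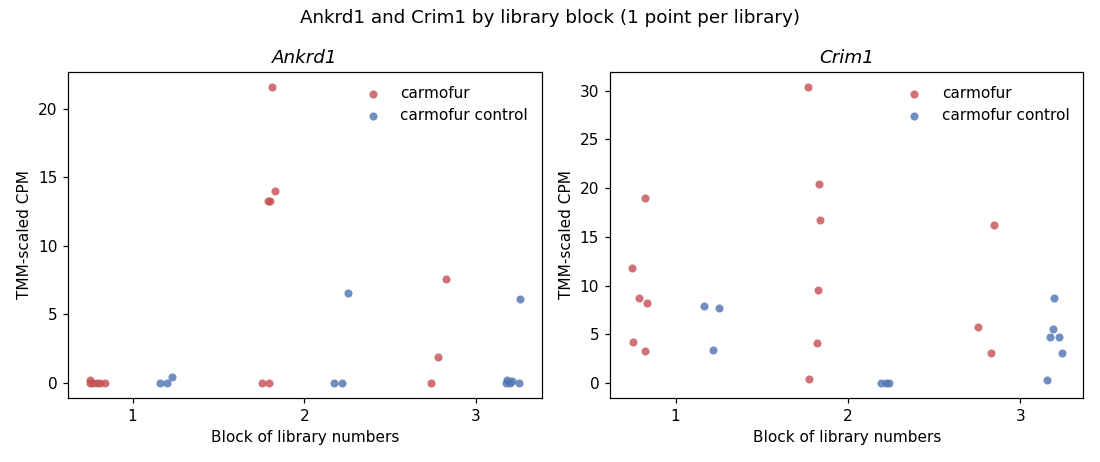
TMM-scaled CPM (vertical axis) of Ankrd1 (left panel) and Crim1 (right panel) in carmofur libraries (red) and controls (blue), by block of library numbers (horizontal axis), with 1 point per library. In block 1 every Ankrd1 value is under 0.5 CPM, and in block 2 all 3 Crim1 controls are at 0.

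A further 6 members act back on the Hippo pathway. Lats2, the kinase that phosphorylates YAP, lay at 0, 0.404 and 9.81 CPM with carmofur and at 0, 3.29 and 14.1 CPM in controls (log2 fold change -0.75 ± 0.83, edgeR adjusted p = 0.73). Ptpn14, a tyrosine phosphatase that binds YAP and holds it in the cytoplasm, lay at 0, 5.39 and 17.1 CPM with carmofur and at 2.17, 8.11 and 24 CPM in controls (-0.64 ± 0.57, edgeR adjusted p = 0.648). These were the only tested members with a value below 0, and the groups of each overlapped. In blocks 1, 2 and 3 Lats2 had means of 1.72, 0.926 and 5.57 CPM with carmofur, against 2.06, 1.21 and 5.72 CPM in controls. Block 3, where both groups had their highest Lats2 mean, holds 3 carmofur libraries and 6 controls. The pooled Lats2 medians and fold change therefore draw unequally on the blocks.

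Amotl2, an angiomotin-family scaffold that tethers YAP at cell junctions, lay at 0, 4.09 and 19.1 CPM with carmofur and at 0, 1.15 and 18.6 CPM in controls (0.44 ± 0.82, edgeR adjusted p = 0.868). Wwc1, the adaptor KIBRA that activates LATS kinases, lay at 0.484, 5.51 and 27 CPM with carmofur and at 0.458, 1.46 and 13.4 CPM in controls (1.05 ± 0.69, edgeR adjusted p = 0.46). Ajuba, a LIM-domain protein that restrains LATS kinases, lay at 0.324, 15.7 and 36.6 CPM with carmofur and at 0.512, 7.56 and 25.4 CPM in controls (0.51 ± 0.53, edgeR adjusted p = 0.701). In each of these 3 genes 11 of 15 carmofur libraries lay above the control median and 1 above the highest control. Nuak2, a kinase of the AMPK family, lay at 0, 2.53 and 13.9 CPM with carmofur and at 0, 0.67 and 14.4 CPM in controls (0.34 ± 0.86, edgeR adjusted p = 0.907).

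The spread between libraries was wide for these genes. The biological coefficient of variation, the library-to-library spread that edgeR fits beyond counting error, was 1.35 for Amotl2, 1.37 for Lats2, 1.41 for Nuak2, 1.1 for Wwc1 and 1.04 for Crim1 in the carmofur experiment, where the median of all tested genes was 0.65. It was 0.39 for F3 and 0.5 for Myof, the members with the highest counts. On simulated data with the spread of this experiment, the test found 43% of 2-fold and 61% of 4-fold changes over all expression levels. The changed genes were drawn at random from all tested genes, so these shares do not give the sensitivity for members with a wider spread.

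With palmitic acid, 0 of the 9 members tested passed in either batch. In batch 1, 0.559% of the 9845 genes tested passed in edgeR, and in batch 2 0.325%. On simulated data the batch 1 test found 21% of 2-fold and 51% of 4-fold changes in genes drawn from all tested. The batch 2 test found 13% and 38%. At an unadjusted p under 0.05 there was 1 member in batch 1 (Lats2) and there were 2 in batch 2 (Lats2 and Ptpn14), where 7.73% and 7.1% of tested genes reached that level. DESeq2 and limma-voom also called 0 members. The share of all genes that these 2 tools called is not given for any comparison in this report. Both batches were set against the same 3 controls, so their values are not independent of each other. Batch and treatment cannot be told apart here, because no batch is stated for the controls.

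Ankrd1, Ajuba, Lats2 and Ptpn14, 4 of the 10 members, lay above all 3 controls in every library of batch 1, and the same 4 in both libraries of batch 2. Of all tested genes 6.92% did so in batch 1 and 10.9% in batch 2. Lats2, Ptpn14 and Nuak2 passed the expression filter only through palmitic acid libraries, and Ankrd1 did not pass it. The number of members above the controls is therefore no support for a change of the group. The same holds for the number at an unadjusted p under 0.05, and for the Lats2 ratios below. Control 1 was the shallowest library of the series, and 3 counts there equal 3.87 CPM.

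Lats2 had 7.32, 1.06 and 0.481 CPM in batch 1 and 3.52 and 5.41 CPM in batch 2, against 0, 0.392 and 0 CPM in controls. This was 21 counts in batch 1 and 26 in batch 2, against 1 count over the 3 controls, and 17 of the 21 came from 1 library. The ratios of pooled levels were 16.1 in batch 1 (95% exact counting interval 2.59 to 667) and 23.7 in batch 2 (3.89 to 971), which cover counting error only. Fitted over all libraries, the log2 fold changes were 3.74 ± 1.79 in batch 1 (edgeR adjusted p = 0.618) and 4.33 ± 1.85 in batch 2 (edgeR adjusted p = 0.564).

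Ptpn14 had 5.6, 3.89 and 9.61 CPM in batch 1 and 10.3 and 6.66 CPM in batch 2, against 0, 2.74 and 1.35 CPM in controls. The groups did not overlap. The log2 fold changes were 1.95 ± 1.03 (edgeR adjusted p = 0.662) and 2.37 ± 1.09 (edgeR adjusted p = 0.629).

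Ajuba had 9.91, 14.5 and 11.1 CPM in batch 1 and 13.8 and 8.32 CPM in batch 2, against 1.29, 7.83 and 5.85 CPM in controls. Here too the groups did not overlap. The log2 fold changes were 1.12 ± 0.72 (edgeR adjusted p = 0.768) and 1.03 ± 0.78 (edgeR adjusted p = 0.916).

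Ankrd1 had 3, 1 and 2 counts in batch 1 and 7 and 1 counts in batch 2, against 0 counts in all 3 controls. Only the library with 7 counts (1.9 CPM) exceeded the limit of 3 counts, so no fold is given. Nuak2 had 6.03, 0.354 and 1.92 CPM in batch 1 and 1.9 and 4.58 CPM in batch 2, against 2.58, 0 and 0.45 CPM in controls, which hold 3 counts in all. The groups overlapped (log2 fold changes 1.87 ± 1.64 and 2.09 ± 1.73, edgeR adjusted p = 0.868 and 0.951). Amotl2 had 5.6, 3.89 and 0.481 CPM in batch 1 and 3.52 and 8.32 CPM in batch 2, against 1.29, 2.35 and 4.5 CPM in controls (0.23 ± 1.15 and 1.03 ± 1.24, edgeR adjusted p = 0.994 and 0.996).

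**Figure D3:**
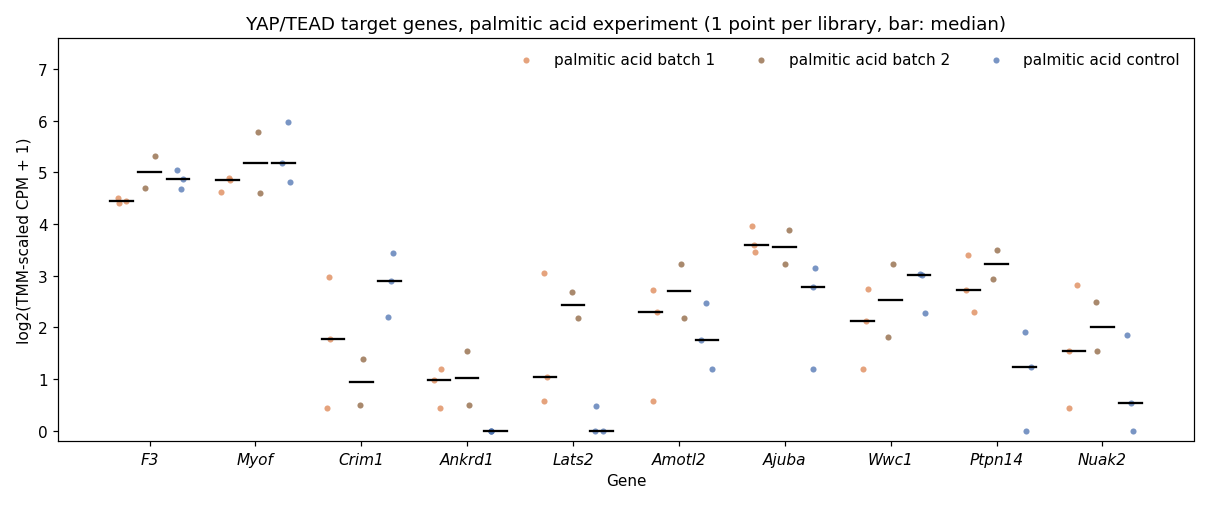
Levels of the 10 YAP/TEAD target genes, as log2 of TMM-scaled CPM plus 1 (vertical axis), in palmitic acid batch 1 (orange), batch 2 (brown) and controls (blue), with 1 point per library and a bar at the median of 3, 2 and 3 libraries. Ankrd1, Lats2, Ajuba and Ptpn14 lie above the controls in all 5 treated libraries. Taken by batch, 6.92% of tested genes lie above all controls in batch 1 and 10.9% in batch 2. The share that does so in both batches is not given, and Ankrd1 is not among the tested genes. Ankrd1 exceeds 3 counts in 0 of 3 batch 1 and 1 of 2 batch 2 libraries. Crim1 lies below the controls in both batch 2 libraries, as do 9.02% of tested genes.

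Among the members of the cell surface, Crim1 had 6.89, 0.354 and 2.4 CPM in batch 1 and 1.62 and 0.416 CPM in batch 2, against 6.44, 9.79 and 3.6 CPM in controls. Both batch 2 libraries lay below every control, as did 9.02% of tested genes. The log2 fold changes were -1.04 ± 1.15 (edgeR adjusted p = 0.921) and -2.58 ± 1.42 (edgeR adjusted p = 0.745).

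F3 had 21.5, 20.2 and 20.7 CPM in batch 1 and 24.9 and 38.7 CPM in batch 2, against 24.5, 32.1 and 28.3 CPM in controls. All 3 batch 1 libraries lay below every control, as did 6.12% of tested genes, while batch 2 overlapped the controls. The log2 fold changes were -0.46 ± 0.39 and 0.15 ± 0.43 (edgeR adjusted p = 0.867 and 0.997).

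Myof had 23.7, 28.7 and 27.9 CPM in batch 1 and 53.6 and 23.3 CPM in batch 2, against 61.9, 35.3 and 27 CPM in controls (-0.58 ± 0.36 and -0.05 ± 0.39, edgeR adjusted p = 0.753 and 0.997). Wwc1, which acts inside the cell, had 1.29, 5.66 and 3.36 CPM in batch 1 and 8.4 and 2.5 CPM in batch 2, against 3.87, 7.05 and 7.2 CPM in controls (-0.83 ± 0.97 and -0.17 ± 1.06, edgeR adjusted p = 0.934 and 0.997). In both genes the groups overlapped.

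Set directly against batch 1, batch 2 differed in 0 of the 9 tested members, and in 0.102% of all tested genes. On simulated data this comparison found 18% of 2-fold and 46% of 4-fold changes. At an unadjusted p under 0.05 there were 0 members, against 2.37% of tested genes. Both batch 2 libraries lay above every batch 1 library in F3, as in 7.78% of tested genes, and in no member did they lie below, as in 8.7%. The lowest unadjusted p was that of F3 (log2 difference 0.61 ± 0.43, p = 0.159, edgeR adjusted p = 1), and DESeq2 and limma-voom called 0 members as well. The effect of carmofur minus that of palmitic acid batch 1, fitted over all 35 libraries, passed in 0 of 10 members and in 0.69% of 14052 genes by edgeR, with 0 members at an unadjusted p under 0.05, against 6.68% of genes, and 0 by DESeq2. The largest differences were those of Lats2 (-4.75 ± 2.42, edgeR adjusted p = 0.774) and Ankrd1 (-3.22 ± 3.76, edgeR adjusted p = 1). The palmitic acid controls held 1 count of Lats2 and 0 of Ankrd1 in all, so the size of neither difference is well determined. On simulated data this test found 2% of 2-fold and 16% of 4-fold changes.

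**Figure D4:**
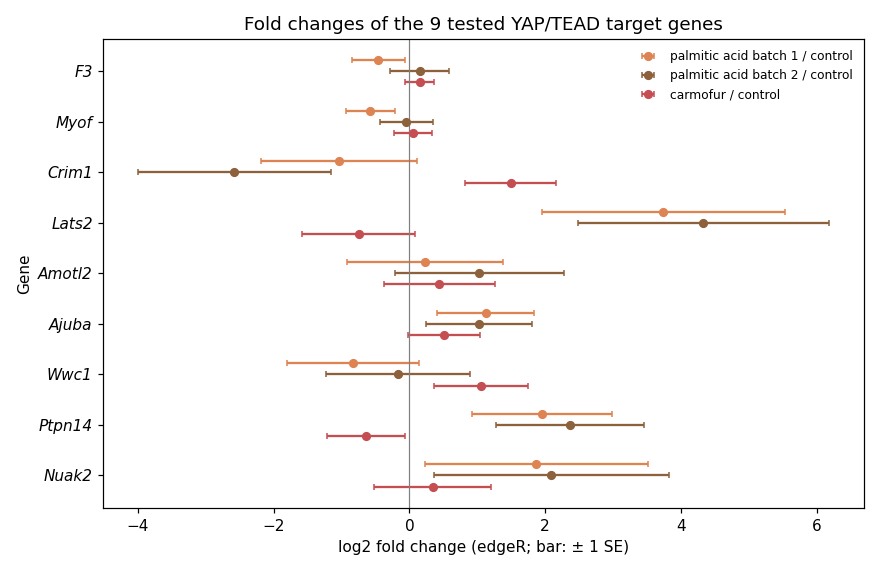
Log2 fold changes (horizontal axis) with 1 SE either side, from edgeR, of the 9 tested YAP/TEAD target genes in palmitic acid batch 1, batch 2 and carmofur, each over its own controls. Lats2 is at 3.74, 4.33 and -0.75, Crim1 at -1.04, -2.58 and 1.49, and no value passed an adjusted p of 0.05.

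Between libraries of a group the members showed no common course. After subtracting group means, the 36 pairs of the 9 tested members had Pearson correlations from -0.42 (Ajuba and Wwc1) to 0.41 (Amotl2 and Lats2) over the 27 carmofur-experiment libraries, with a median of 0.00 and 18 pairs above 0. Without the 3 libraries that stood apart the range was -0.38 to 0.38 and the median 0.04. These points share library depth, and most members have low counts, so the values are a description only. The 5 genes outside the list whose levels followed the mean of the members most closely were Neurl4 (r = 0.73), Tprgl (0.69), Zbtb38 and Cnot4 (0.66 each) and Lgals3 (0.62). Without the 3 libraries that stood apart they had ranks 2, 3, 8, 5 and 20, so Zbtb38 and Lgals3 were then not among the first 5. These 5 were picked as the highest r among all named protein-coding genes tested. No background for r is given, so no link between them and the members follows. The members themselves correlated with that mean, of which each is a part, at 0.13 (F3) to 0.49 (Amotl2).

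**Figure D5:**
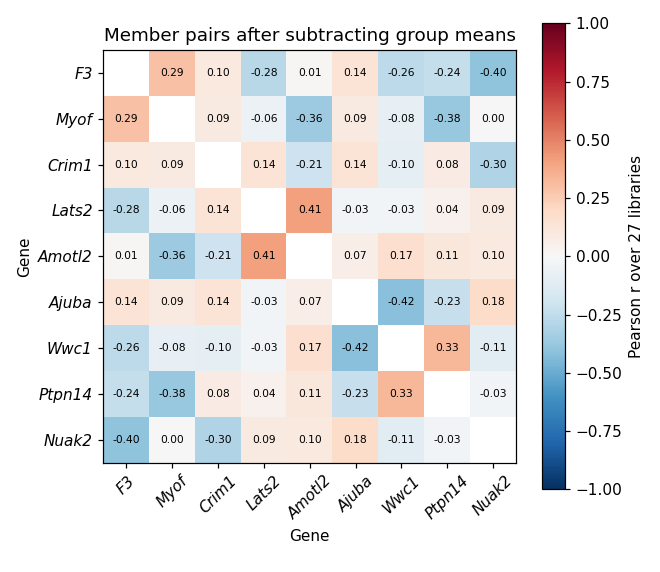
Pearson correlation (colour and printed value) of log2 CPM between each pair of the 9 tested members over 27 carmofur-experiment libraries after subtracting group means. Values run from -0.42 to 0.41 and no pair exceeds 0.5.

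The rest of the pathway was described from lists that hold none of the 10 members. Of 32 Hippo kinases and adaptors, 27 were tested with carmofur, and 1 fell, where 9.02% of all tested genes passed in either direction. This was Stk3, the MST2 kinase at the head of the cascade, at 30.7, 52.7 and 77.8 CPM with carmofur, against 52.2, 74.8 and 97.2 CPM in controls (lowest, median and highest). Its log2 fold change was -0.52 ± 0.15 (edgeR adjusted p = 0.0227). The call was lost without 5 of the 9 sets of 3 consecutive library numbers, within each block (adjusted p = 0.227 to 0.509) and with counts summed by set (adjusted p = 0.183). At an unadjusted p under 0.05 there were 3 of the 27, where 19% of all tested genes reached that level. Beside Stk3 these were Ppp2r1a (-0.3, edgeR adjusted p = 0.0826) and, with the opposite sign, Amot, an angiomotin that binds YAP (1.2, edgeR adjusted p = 0.217). Over the 27 genes the median was 0.08 on the log2 scale, with 15 above 0, against 0.00 and 50.2% over all tested genes.

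Of 9 TEADs and coactivators 6 were tested with carmofur, and 0 passed by edgeR, DESeq2 or limma-voom, with 0 at an unadjusted p under 0.05 (median log2 fold change 0.03). Yap1 had 28.4 ± 13.6 CPM with carmofur and 25.6 ± 15.9 CPM in controls (log2 fold change 0.14, edgeR adjusted p = 0.902). Of the 14 other genes of a published signature of 22 YAP and TAZ targets, 7 were tested with carmofur and 0 passed by edgeR, DESeq2 or limma-voom, with 0 at an unadjusted p under 0.05 (median -0.06). With palmitic acid, 0 genes of the 3 lists passed in either batch by these tools. At an unadjusted p under 0.05 there were 2 of 6 tested signature genes in each batch and 0 of the other lists, where 7.73% and 7.1% of all tested genes reached that level. These were Ccn2 and Rbms3 in both batches, which share their controls, and they had opposite signs: Ccn2 was at -1.61 and -1.76 and Rbms3 at 0.99 and 1.37 on the log2 scale. Yap1 had 13.4 ± 5.15 CPM in batch 1 (n = 3), 20.5 ± 1.98 CPM in batch 2 (n = 2) and 10.2 ± 3.64 CPM in controls (n = 3), and did not pass (edgeR adjusted p = 0.949 and 0.789).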

How the data were processed

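RNA of mouse colon tumour organoids was measured in 35 poly(A)-selected, strand-specific libraries. The authors deposited estimated counts per gene as whole numbers. The submitters' processing notes name Salmon 1.3.0 and mm10. Which annotation release was used, and how transcripts were summed to genes, is not stated there. Rows without a name (1243 of 54354 genes) hold 0.0216% of the counts. Positions and exon lengths came from GENCODE M21, and promoters from RefSeq. There were 0 pairs of identical columns, and replicates differed beyond sampling noise (chi-square per degree of freedom 7.4 or more).

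Tests used edgeR 4.0.16 in R 4.3.3 (TMM, default expression filter, robust quasi-likelihood F test, threshold 0.05). The 8 palmitic acid libraries were fitted together, as were the 27 carmofur-experiment libraries and all 35 for the difference of effects. Standard errors were taken as the fold change on the log2 scale over the root of F, and CPM were scaled by TMM within each experiment. The library numbers come from the labels. Blocks of 12 and sets of 3 consecutive numbers were cut from them for this report and are not given by the labels. Alternatives included DESeq2 1.42.0, limma 3.58.1, other scalings, filters and left-out libraries. The script was tested on simulated data. The members and lists were chosen with earlier results of these data known. Named are all members, list genes that passed or had the lowest p, and the 5 genes most like the members' mean.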

Additional observations from a re-analysis of the deposited data

How the results depend on the processing

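No member passed in any of 16, 16, 15 and 23 alternatives for palmitic acid batch 1, batch 2, their difference and the difference of effects. With carmofur 47 of 49 alternatives gave 0 members. The exceptions gave 1, Crim1, with limma-voom (adjusted p = 0.0449) and within library block 2 (0.0211). Over all 49 its log2 fold change ran from 0.52 to 9.2, the highest value being fitted against controls at 0. Counts of all genes moved more. With carmofur, 901 genes passed, against 3541 with no filter, 334 with counts summed by library set, and 234, 512 and 588 within blocks 1, 2 and 3. The palmitic acid batch 2 count of 32 was 55 with DESeq2 and 70 with both batches as 1 group, and that between batches was 19 with no filter, against 10. The difference of effects gave 97 genes, 204 with DESeq2 and 56 with the replicate block. Leaving out libraries or sets gave 21 to 72 genes for batch 1 (31, 33 and 21 without batch 1 replicates 1, 2 and 3, against 55), 2 to 14 between batches (5, 6 and 2 without the same libraries), and 22 to 129 for the difference of effects (50, 47 and 44 without palmitic acid controls 1, 2 and 3, 43, 46 and 22 without batch 1 replicates 1, 2 and 3, and 57 without carmofur controls 4 to 6). The cause of these shifts was not tested.

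Libraries share only a replicate number: same-numbered libraries had correlations of their deviations from -0.02 to 0.05, and 1 of 12 carmofur and 1 of 3 batch 1 libraries correlated best with its own number. With the replicate block 0 members passed, and the Stk3 call was lost (adjusted p = 0.109). Ppp2r1a, a scaffold subunit of protein phosphatase 2A, passed with DESeq2 (-0.32, adjusted p = 0.0452), without carmofur control 3 (0.0271) and without carmofur 7 to 9 (0.0205). With no filter Vgll3 and Ccdc80 passed with carmofur (adjusted p = 0.0268 and 0.0241), and neither met the filter otherwise used. Low counts limit most members: Ankrd1, Lats2, Nuak2 and Amotl2 had libraries at 0 in both carmofur-experiment groups.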

Other observations

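Ccn2, which encodes the secreted matrix protein CTGF and is a standard YAP target outside the 10 genes, did not overlap between groups with palmitic acid. It had 2.48, 5.17 and 7.21 CPM in batch 1 and 4.16 and 4.6 CPM in batch 2, against 11.4, 11.7 and 23.2 CPM in controls, so no treated library reached a control. Of all tested genes 6.12% lay below every control in batch 1 and 9.02% in batch 2. The log2 fold changes were -1.61 ± 0.77 and -1.76 ± 0.88 and did not pass (edgeR adjusted p = 0.618 and 0.694). Ccn1, its relative CYR61, had 0.862, 2.88 and 5.66 CPM in batch 1 and 2.08 and 11.1 CPM in batch 2, against 0, 2.58 and 10.6 CPM in controls, and the groups overlapped. With carmofur Ccn2 had 4.1, 22.6 and 44.1 CPM (lowest, median and highest), against 4.5, 15.4 and 51.1 CPM in controls (log2 fold change 0.16, edgeR adjusted p = 0.882). Ccn2 was singled out after its values were seen.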
